A study of Mus musculus with 4 samples.

Results

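The genes of the cytosolic ribosomal proteins were examined in chromatin of mouse spleen regulatory T (Treg) cells, a T cell type that holds back immune reactions. By their symbols (Rps or Rpl with a number and at most an a, l, x or y, plus Rpsa, Rplp0, Rplp1 and Rplp2), 81 of 21887 protein-coding genes of the RefSeq table of GRCm38.p6 were taken. A peak was counted for such a gene if it was the protein-coding gene with the end nearest to the peak's summit, within 100 kb. This gave 5 of 1106 peaks of the anti-Eos list, at 4 genes that include Rps19, Rps26 and Rpl11, and 3 of 469 peaks of the anti-Helios list, at 3 genes that include Rps19 and Rps26. The other 77 genes had no peak assigned in either list.

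The assay was ChIP-seq, in which DNA crosslinked to a protein is pulled down by an antibody and sequenced. The antibodies were directed against Eos (Ikzf4) and Helios (Ikzf2), zinc finger factors of the Ikaros family. Cells were isolated with a CD4+CD25+ kit from spleens of WT mice and of Eos-flox x Foxp3-Cre mice, in which Foxp3 drives the Cre. The sources used here do not give age, strain or pooling of the animals. Both groups used here were WT, with 1 library each (anti-Eos and anti-Helios), and the 2 libraries from Eos-flox x Foxp3-Cre mice were not analysed here. A single library per group leaves no spread between replicates, so no test was made and every value describes these 2 libraries. Intervals cover counting error only.

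Each ribosome joins a small and a large subunit, and every subunit holds one copy of most ribosomal proteins together with ribosomal RNA. The small subunit (Rps proteins) reads the mRNA, and the large subunit (Rpl proteins) joins amino acids. The genes are transcribed at high levels in most cells, and resting T cells raise ribosome production when they are activated. Their mRNAs typically begin with a run of pyrimidines that links their translation to mTORC1 signalling.

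Rps19 (gene 20085, chromosome 7, 24884592 to 24889811, plus strand) had the highest peaks of the group with both antibodies. Its product is a small subunit protein needed to mature the 18S ribosomal RNA, and it is the gene most often mutated in Diamond-Blackfan anaemia. With anti-Eos, a peak at 24884347 to 24884565 had a fold enrichment of 24.4 over local background, the authors' own value, and ranked 5 among the 1106 peaks. Its summit lay 133 bp upstream of the annotated start and held 42 fragments (exact Poisson interval 30.3 to 56.8), a count solved from the fold together with its p-value. The local background there was 0.762 fragments. A second anti-Eos peak, at 24884047 to 24884226, had its summit 505 bp upstream with a fold of 9.26 (rank 252) and 17 fragments.

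With anti-Helios, 1 peak of 576 bp at 24884062 to 24884637 spanned most of both and the annotated start of Rps19. Its fold was 17.5, rank 5 of 469, with 38 fragments (26.9 to 52.2) before scaling. The local background of 1.00 refers to fragments scaled by 0.895, as does the fold. The summit of this peak lay 199 bp upstream of the start, 66 bp from the higher anti-Eos summit and 306 bp from the lower one. All 219 bp of the higher anti-Eos peak lay inside it, and 165 of the 180 bp of the lower one.

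The bases of the higher anti-Eos peak are shown because both lists cover all of them, at the group's strongest place. They are RefSeq sequence of GRCm38.p6, chr7:24884347-24884565, plus strand, 5′ to 3′, with the letters GGGAA on either strand (the core read by Ikaros family zinc fingers) in capitals.

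Rps19: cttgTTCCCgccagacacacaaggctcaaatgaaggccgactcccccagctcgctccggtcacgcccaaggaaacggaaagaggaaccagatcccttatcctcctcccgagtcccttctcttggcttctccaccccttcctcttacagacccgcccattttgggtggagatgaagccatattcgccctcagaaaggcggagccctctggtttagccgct

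The single match in this stretch lay on the minus strand with its middle 106 bp from the anti-Eos summit and 40 bp from the anti-Helios summit. A further 3 matches lay in the first 50 bases after the start, beyond the end of the anti-Eos peak. They began at bases 26, 40 and 46. The anti-Helios peak covered those at 26 and 40 whole and only the first base of that at 46. No match to CCGGAAG, a core read by ETS factors, lay in the promoter window of Rps19. Promoter windows are here the 300 bp from 250 before to 50 after the annotated start.

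**Figure D1:**
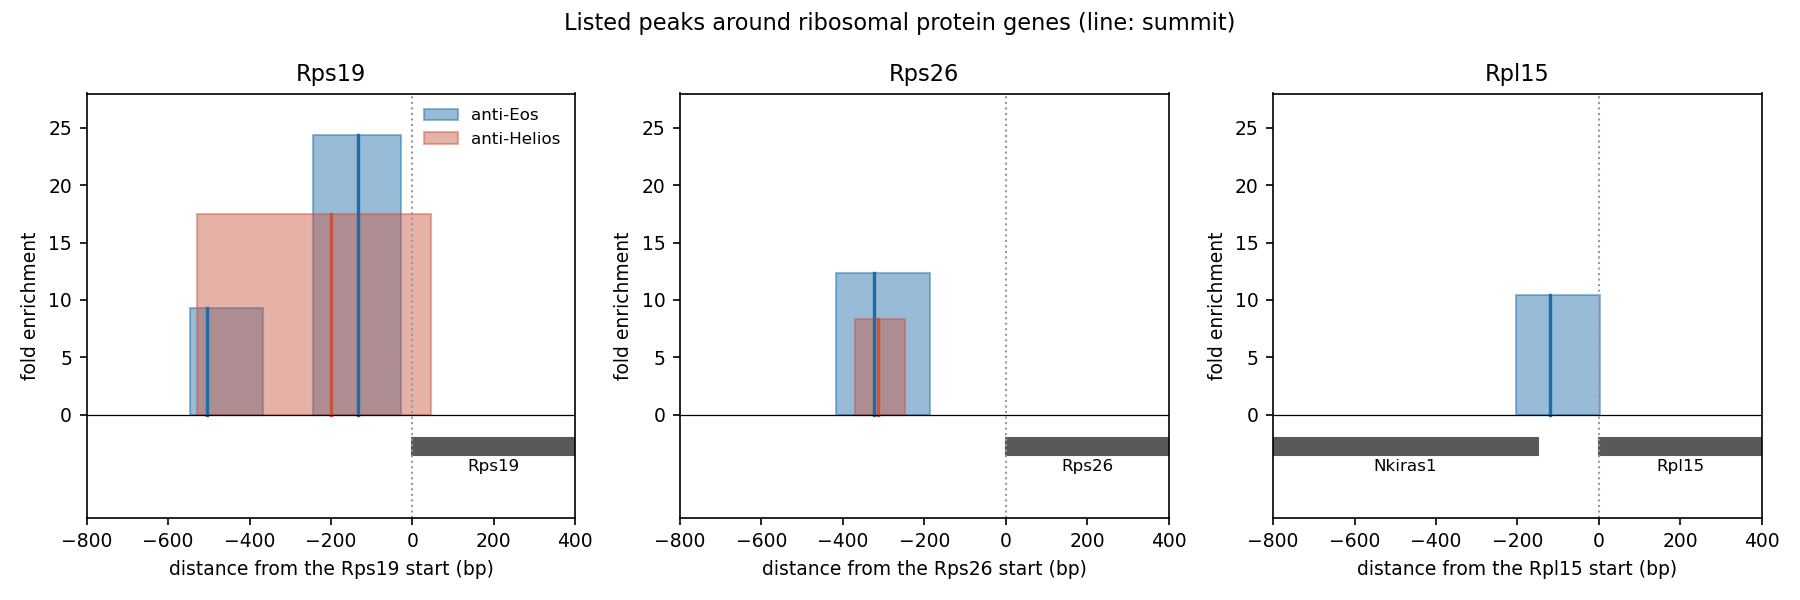
Listed peaks at Rps19, Rps26 and Rpl15, with the authors' fold enrichment on the y axis and the distance from the gene start in bp on the x axis. Boxes span peaks (blue anti-Eos, red anti-Helios), the line in each box is the summit, and grey bars are genes. At Rps19 the anti-Helios peak (17.5) covers the higher anti-Eos peak (24.4), at Rps26 the summits are 9 bp apart, and at Rpl15 there is an anti-Eos peak alone (10.4).

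Rps26 (gene 27370, chromosome 10, 128624529 to 128626506, minus strand) encodes a small subunit protein that lies where mRNA leaves the ribosome. Both antibodies gave a peak upstream of its start. The anti-Eos peak (128626691 to 128626923) had a fold of 12.3, rank 78, with 23 fragments (14.6 to 34.5). The anti-Helios peak (128626752 to 128626876) had a fold of 8.33, rank 166, with 16 fragments (9.15 to 25.98). It lay wholly inside the anti-Eos peak, sharing 125 bp. The summits were 323 and 314 bp upstream of the start, 9 bp apart. The place lies between Rps26 and Ikzf4, the gene of Eos itself, whose nearer end was 4010 and 4019 bp from the summits. The strand of Ikzf4 was not given in the sources used here, so whether that end is its start was not determined.

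The promoter window of Rps26 reaches 66 bp into the anti-Eos peak and 5 bp into the anti-Helios peak, and stops short of both summits. Those bases are shown because they hold the letters TGGGAA and CCGGAAG, in capitals. The stretch is chr10:128626691-128626756 of GRCm38.p6, read on the minus strand, from RefSeq.

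Rps26: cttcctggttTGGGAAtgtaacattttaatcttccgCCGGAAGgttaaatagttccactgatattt

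The middle of TGGGAA, which includes the letters GGGAA, lay 85.5 bp from the anti-Eos summit, and that of CCGGAAG 112 bp. Both matches lay outside the anti-Helios peak. Sequence beyond the window, including that under the summits, was not used here.

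Rpl11 (gene 67025, chromosome 4, 136049354 to 136053393, minus strand) was the single large subunit gene with an assigned peak. Its product also binds the p53 regulator MDM2 when ribosome assembly is disturbed. The anti-Eos peak (136081797 to 136082068) was far from the gene, 28.6 kb upstream of its start. Its fold of 5.54 ranked 928 of 1106, with 15 fragments (8.40 to 24.7) over a local background of 1.89. The peak was assigned to Rpl11 because Eloa, the next protein-coding gene by distance, was 60367 bp away. No anti-Helios peak overlapped it. Under the distance limit it was the farthest member peak, and the next beyond the limit was an anti-Eos peak 233.2 kb from Rplp1 (fold 5.67).

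An anti-Eos peak also lay between Rpl15 and Nkiras1, and the rule gave it to the latter. Rpl15 (gene 66480, chromosome 14, 18267823 to 18270986, minus strand) encodes a core large subunit protein, and Nkiras1 a Ras-like regulator of NF-kappaB. The peak (18270984 to 18271190, fold 10.4, rank 162, 16 fragments with interval 9.15 to 25.98) had its summit 30 bp from Nkiras1 and 120 bp upstream of the Rpl15 start, so it filled the gap between both genes. No anti-Helios peak overlapped it. The bases of the gap are shown because the peak covers them whole: chr14:18270987-18271135 of GRCm38.p6, minus strand, from RefSeq, with CCGGAAG in capitals.

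Rpl15: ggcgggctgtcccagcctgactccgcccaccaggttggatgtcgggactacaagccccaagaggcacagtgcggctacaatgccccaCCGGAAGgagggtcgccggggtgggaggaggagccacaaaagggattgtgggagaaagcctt

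The middle of that match was 61 bp from the summit and 59 bp from the start of Rpl15. The promoter window held a second CCGGAAG, at position -157 from the start, inside Nkiras1. That match also lay inside the anti-Eos peak, nearer to the summit than the match shown. The Rpl15 window held no GGGAA on either strand.

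**Figure D2:**
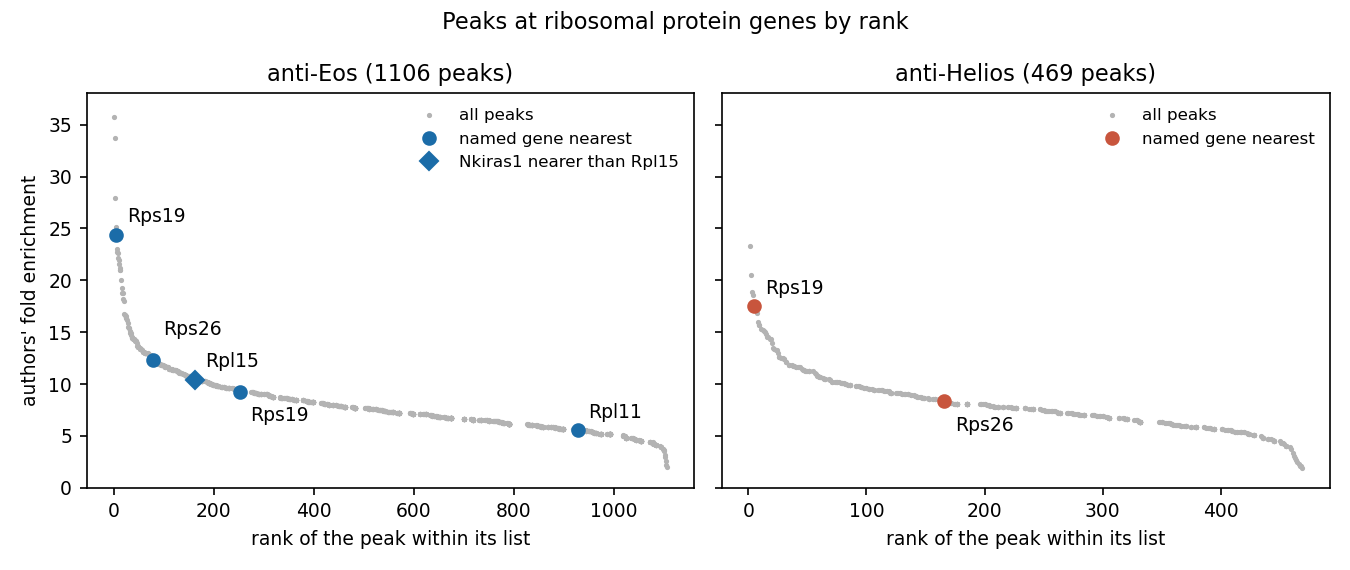
The authors' fold enrichment of every peak (grey) against its rank within its own list, for anti-Eos (left) and anti-Helios (right), with the peaks at Rps19, Rps26 and Rpl11 as circles and the Rpl15 and Nkiras1 peak as a diamond (equal folds share a rank). The highest peak at Rps19 ranks 5 in each list, and the others shown lie between rank 78 at Rps26 and rank 928 at Rpl11 for anti-Eos and at rank 166 at Rps26 for anti-Helios.

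Against a median fold of 7.31 over all anti-Eos peaks, 4 of the 5 member peaks were higher and that at Rpl11 lower. All 3 anti-Helios member peaks were above their list's median of 7.66. The median fragment count was 14 over all anti-Eos and 18 over all anti-Helios peaks, so the anti-Helios peak at Rps26, with 16 fragments, was below its list's median. Of the 5 anti-Eos member peaks, 3 overlapped an anti-Helios peak by at least 1 bp, beside 27.9% of all anti-Eos peaks. Of the 3 anti-Helios member peaks, 2 overlapped an anti-Eos peak (interval 9.43 to 99.2%), beside 65.9% of all anti-Helios peaks. Overlap of at least 50% of both peaks held for 1 of the 5, that at Rps26.

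With assignment within 100 kb, an anti-Eos summit was found at 4 of 81 genes (4.94%, exact binomial interval 1.36 to 12.2%), beside a close 4.04% of all protein-coding genes. For anti-Helios it was 3 of 81 (3.70%, 0.770 to 10.4%), beside 1.91%, which lies within the interval. With the summit within 1 kb of a gene end, 3 of 81 genes were counted for each antibody (3.70%), beside 1.88% of all genes for anti-Eos and 1.07% for anti-Helios. These intervals also hold the shares over all genes. Counted over gene starts, a peak overlapped the promoter window at 3 of 61 ribosomal protein genes with such a window for anti-Eos (Rps19, Rps26 and Rpl15; 4.92%, 1.03 to 13.7%), beside 1.71% of 17492 windows. For anti-Helios it was 2 of 61 (Rps19 and Rps26; 3.28%, 0.3996 to 11.3%), beside 0.989%.

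The subunits were also counted apart. Small subunit genes held an anti-Eos summit at 3 of 31 genes and an anti-Helios summit at the same 3 (9.68%, 2.04 to 25.8%), beside 4.04% and 1.91% of all protein-coding genes. The interval holds the first of these shares, and its lower bound lies just above the second. The intervals are not adjusted for the number of gene lists counted. Large subunit genes held an anti-Eos summit at 1 of 50 genes (interval 0.0506 to 10.6%) and an anti-Helios summit at 0 of 50, which allows a share of up to 6%. For the large subunit, the shares over all genes lie within these ranges. The difference between the subunits was not tested, and their intervals overlap for each antibody. Within 10 kb of a summit, whichever gene took it, lay 6 ribosomal protein genes for anti-Eos (7.41%, 2.77 to 15.4%, beside 4.33% of all genes). For anti-Helios it was 5 (6.17%, 2.03 to 13.8%, beside 2.40%). Both intervals hold the shares over all genes. In each list, 1 summit was counted for more than 1 of these genes, while the intervals treat genes as independent. The ribosomal protein genes included Rpl37, 8249 bp from an anti-Eos summit inside Card6, and Rpl7a, 7758 bp from an anti-Helios summit next to Surf6. No summit lay within 1 kb of any of the 321 genes whose symbols mark them as ribosomal protein pseudogenes, which allows a share of up to 0.935%. Measured in the same way from the gene body, and without matching gene length, 3.68% of all protein-coding genes had an anti-Eos and 1.86% an anti-Helios summit.

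Promoters of ribosomal protein genes were then compared in their letters, over the 61 genes with a window. The Ikaros core GGGAA was present in 68.9% of them (exact interval 55.7 to 80.1%), beside 62.6% of the 17492 windows of all protein-coding genes, and TGGGAA in 19.7% (10.6 to 31.8%) beside 24.5%. CCGGAAG was present in 39.3% (27.1 to 52.7%) beside 11.9%, and the shorter CCGGAA in 49.2% (36.1 to 62.3%) beside 19.0%. Matches to CACGTG, the E-box that Myc reads, were found in 8.20% beside 7.91%, and to GTAAACA, a forkhead core, in 1.64% beside 2.93%. GGGCGG (57.4% beside 46.3%), TATAAA (11.5% beside 13.3%), GATGGCGG (3.28% beside 2.32%) and GCATGCGC (3.28% beside 3.60%) completed the 10 motifs. Both strands were searched, and each longer motif includes its shorter form.

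**Figure D3:**
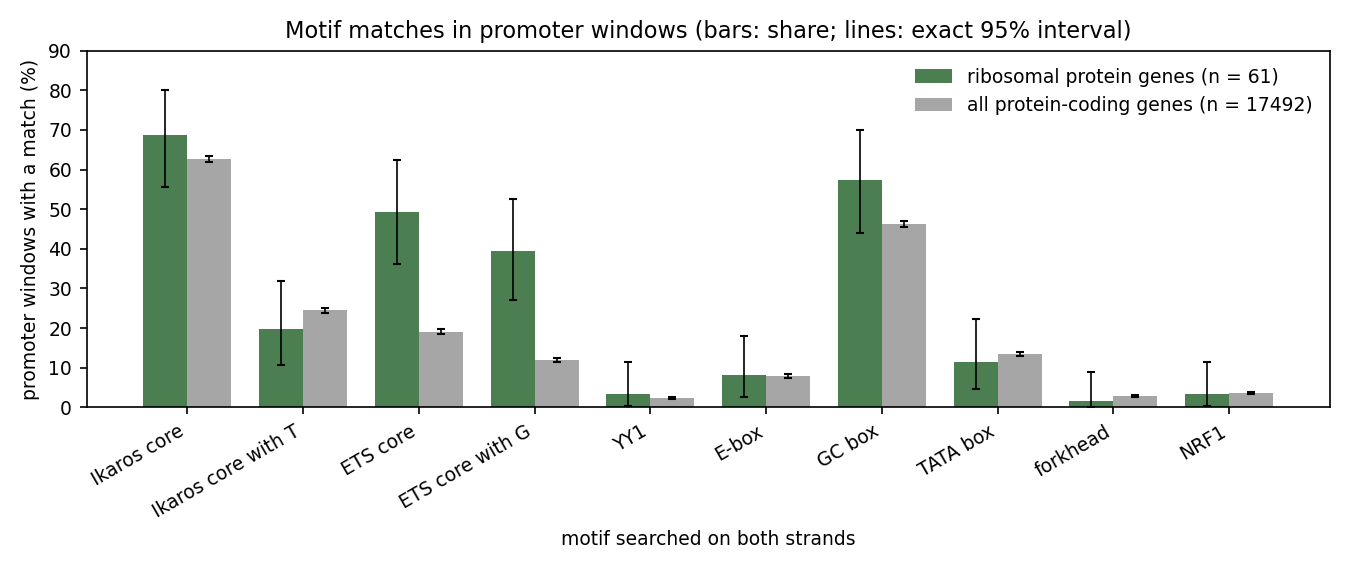
Share of promoter windows in percent (y axis) with a match to each motif (x axis) for the 61 ribosomal protein genes (green) and all 17492 protein-coding genes with a window (grey), with exact 95% intervals. The ETS cores stand at 49.2% and 39.3% in ribosomal protein genes beside 19.0% and 11.9%, and the Ikaros core at 68.9% beside 62.6%.

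A run of at least 8 C or T bases, on the gene's strand between 10 bases before and 20 after the start, was present in 21 of the 61 promoters (34.4%) beside 11.04% of all. The longest run was 17 bases at Rpl15, 9 at Rps26, 7 at Rpl11 and 4 at Rps19. Of these 4 genes, which have a peak named above and a window, CCGGAAG was in the windows of Rps26, Rpl15 and Rpl11, and GGGAA in those of Rps19, Rps26 and Rpl11. Of the 57 promoters of genes without such a peak, GGGAA was in 68.4% and CCGGAAG in 36.8%. Peaks overlapped the windows of Rps19, Rps26 and Rpl15 only, while the Rpl11 peak lay 28.6 kb upstream of its start. Within those overlapped windows, CCGGAAG was in Rps26 and Rpl15, and GGGAA in Rps19 and Rps26. At Rps26 these matches lay inside the anti-Eos peak and outside the anti-Helios peak. A match is a description of letters, not a bound site.

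Other genes of the translation machinery were counted in the same way, beside 4.04% (anti-Eos) and 1.91% (anti-Helios) of all protein-coding genes. For every one of these lists, the exact interval holds the share over all genes with the same antibody. Mitochondrial ribosomal protein genes had an anti-Eos summit at 4 of 78 (5.13%, 1.41 to 12.6%): Mrpl30 (fold 12.3), Mrpl52 (12.3), Mrpl39 (8.31) and Mrps18c (6.77), all within 47 bp of the annotated start. Only Mrpl39 was assigned an anti-Helios peak (7.72, summit 38 bp upstream of the start), while the anti-Eos peak at Mrps18c overlapped an anti-Helios peak that was assigned to another gene. Initiation factor genes had 1 of 56 in each list (1.79%). For anti-Eos it was Eif4a2 (8.55, 5 bp from the start), which encodes an RNA helicase of the cap-binding complex. For anti-Helios it was Eif2d (5.87, 16935 bp from an end). Ribosome assembly genes had 1 of 51 in each list (1.96%), both at Utp3 (7.58 and 5.42). Among S6 kinase and mTORC1 genes, 2 of 20 had an anti-Eos summit (10.0%, 1.23 to 31.7%). These were Rps6ka5 (7.13) and Rptor (5.89, 68213 bp inside the gene). An anti-Helios summit was found at 0 of 20, which allows up to 15%. Elongation and release factor genes (0 of 18) and RNA polymerase I and III subunit genes (0 of 15) had none with either antibody, which allows up to 16.67% and 20%.

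**Figure D4:**
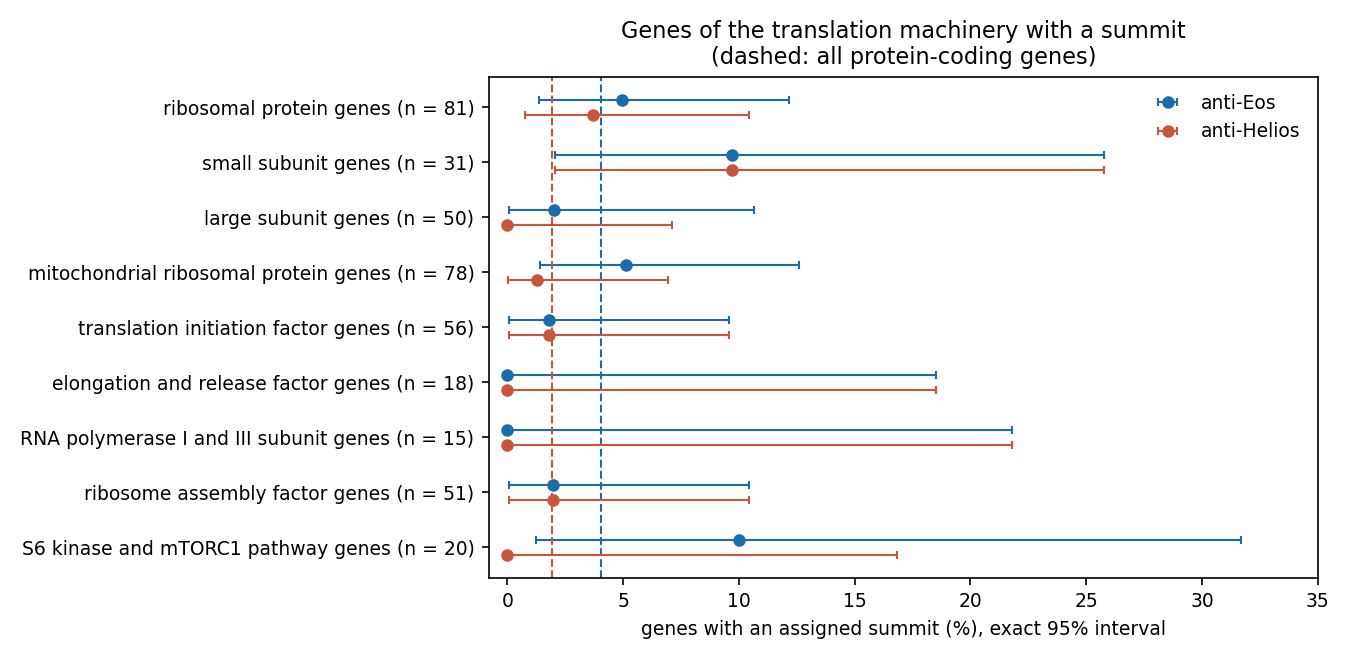
Percent of genes with an assigned summit (x axis) by gene list (y axis, n genes) for anti-Eos (blue) and anti-Helios (red), with exact 95% intervals and dashed lines at the shares over all protein-coding genes. Ribosomal protein genes stand at 4.94% and 3.70%, beside dashed lines at 4.04% and 1.91%, and every interval is wide.

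Marker genes of cell types were also counted. Of 9 Treg and T cell marker genes, 4 had an anti-Eos peak (Cd3d, Ikzf4, Il2ra and Ikzf2) and 1 an anti-Helios peak (Cd3d). Foxp3, Cd4, Ctla4, Cd3e and Cd3g had none in either list. Of 14 marker genes of other spleen cell types (B, myeloid, cytotoxic and erythroid), 0 had a peak in either list, which allows a share of up to 21.43%, above the 4.04% and 1.91% of all genes. A peak is not expression, so these counts do not measure purity or check the labelled cell type. Which control library the folds were taken against was not stated in these sources.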

How the data were processed

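Splenic Treg cells were fixed for 10 min in 1% formaldehyde and 6 µg of antibody was used for each immunoprecipitation, per the labels' protocols. Per the submitters' processing notes, the tools were BWA 0.7.1, deepTools 3.5.1, SAMtools 1.17, Cutadapt 4.4 and Picard, and the builds GRCm38.p6 and mm10. Peak caller and control: not given in the sources used here. The deposited lists hold, per peak, the authors' ratio (fold enrichment) over background, -log10 p-value and -log10 q-value, a score, and the summit offset; in all 1106 and 469 peaks the score equals -log10 q multiplied by 10 and cut to a whole number. Listed -log10 q values began at 2.08 (anti-Eos) and 2.24 (anti-Helios), and weaker places do not appear. Total reads per library were not used here.

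Fragments at each summit were solved from fold and p-value, taking fold as (scaled fragments + 1) / (local background + 1) and p as an upper Poisson tail. This gave both values for 100% of peaks within a relative tolerance of 0.0001, with fragments scaled by 1 (anti-Eos) and 0.895 (anti-Helios). The formula itself is inferred from this fit. The step was tested on simulated data. Fragment totals at summits ran from 7 to 106 (anti-Eos) and 9 to 124 (anti-Helios).

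Strand and promoter sequence came from RefSeq tables of GRCm38.p6, which matched 61 of the 81 genes. The named genes were ribosomal protein genes with an assigned peak or with an end within 1 kb of a summit, their neighbours, and up to 3 genes of each related list with the highest fold (Mrps18c, Rpl37, Card6, Rpl7a, Surf6, Rplp1 and the cell type markers were named after their values were seen). Some results that the rule covers are not reported here, although the counts include them. Members and lists were chosen with earlier results of these data known. Shares have exact binomial (Clopper-Pearson) intervals at 95%, and 3 counts are the limit for a count of 0. Assignment distance, -log10 q, competing genes, gene starts, shared promoters, the symbol rule and the overlap criterion were varied. Python 3.11.15, NumPy 2.4.6, pandas 2.3.3, SciPy 1.17.1 and Matplotlib 3.10.9 were used.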

Additional observations from a re-analysis of the deposited data

How the results depend on the processing

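Of 35 alternatives to the counts of member peaks, genes with a peak and overlapping peaks, 33 stayed within 1.5 times the count reported. With gene starts only, which leaves 17492 coding genes and 61 ribosomal protein genes in competition because the others have no strand in the table, 8 anti-Eos peaks were assigned in place of 5. With overlap of at least 50% of both peaks, 1 anti-Eos member peak was shared in place of 3, because the anti-Helios peak at Rps19 is 576 bp wide. No paired analysis was possible because each group had 1 library, and no library could be left out. Outside the higher anti-Eos and the anti-Helios peak at Rps19, member peaks rested on 15 to 23 fragments, which limits the precision of each fold, and a place below the lowest listed -log10 q would not appear.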
